A study of Mus musculus with 9 samples.

Results

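Type I interferon-stimulated genes are described here across 9 RNA libraries of mouse OT-I CD8 T cells, which carry a transgenic receptor for a peptide of ovalbumin. The set holds 34 antiviral genes chosen by symbol, without the guanylate-binding proteins. It also omits the immunity-related GTPases apart from Ifi47, which encodes one and was on the list. All 34 symbols were found among 23936 genes with a symbol, and 31 of them reached 1 FPKM (a fragment number divided by the length of the transcript and by the mapped total of the library) in at least 3 libraries and were tested beside 10185 genes in all. Oas2, Mx2 and Ifi44 did not reach that level. Oasl1, Oasl2 and Rsad2 reached it in naive libraries alone, so a fall from naive cells was a condition of their being tested. Mx1 reached it in primed libraries alone, so a rise from naive cells was a condition of its being tested.

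The 9 libraries form 3 groups of 3. Naive OT-I cells came from the spleen. Spleen-primed OT-I cells also came from the spleen, and their titles carry the word "iv". MLN-primed OT-I cells came from the mesenteric lymph node (MLN), which drains the intestine, and their titles carry the word "oral". Organ and title word change together between the primed groups, so their effects cannot be told apart, and naive cells of the MLN were not analysed here. The antigen, any adjuvant, the time after priming, the sort gate, the strain, other alleles and the age of the mice are not stated in the labels. Whether the 3 libraries of a group come from separate mice is not in the labels, and p-values therefore measure the spread among libraries, which may be technical.

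Type I interferons, the alpha and beta interferons, bind the receptor chains IFNAR1 and IFNAR2, and the kinases JAK1 and TYK2 then phosphorylate STAT proteins, among them STAT2. With IRF9 they form ISGF3, a complex that binds interferon-stimulated response elements in promoters and switches on genes that sense viral nucleic acid, block translation or trap virus particles. T cells keep a low tonic level of this program, and the cytokine can also act as a signal during priming.

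The response element holds repeats of GAAA, and its core was searched on both strands as GAAA, any 2 bases and GAAA again (TTTC, any 2 bases and TTTC on the other strand). Matches may overlap each other and binding sites of single IRF proteins. RefSeq promoter windows of the assembly GRCm38.p6, from 250 bases before to 50 after the start site, were at hand for 25 of the 34 genes. The core was found in 12 of these windows (48.0%), against 3.99% of 27025 windows of all genes and 3.97% of 8247 windows of tested genes. Before the start site it was found in 8 of 25 windows (32.0%), against 3.46% of all windows. The stretches below are shown because they place the motif in genes with unlike levels. Isg15, Ifit1, Ifit3 and Oas1a were lower in MLN-primed than in the spleen-primed cells, Rsad2 was near 0 in both, and Oas3 was higher in the spleen-primed than in naive cells. Each is written 5′ to 3′ on the strand of its gene, with letters covered by a motif match in capitals.
Isg15: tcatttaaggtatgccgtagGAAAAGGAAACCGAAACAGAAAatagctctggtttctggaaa
Ifit1: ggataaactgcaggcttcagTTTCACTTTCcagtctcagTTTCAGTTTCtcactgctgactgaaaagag
Ifit3: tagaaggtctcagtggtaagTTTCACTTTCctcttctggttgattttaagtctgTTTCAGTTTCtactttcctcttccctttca
Oas1a: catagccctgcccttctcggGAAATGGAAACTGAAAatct
Rsad2: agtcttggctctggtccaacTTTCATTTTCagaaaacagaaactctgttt
Oas3: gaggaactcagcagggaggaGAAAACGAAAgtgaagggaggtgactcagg
The Isg15 stretch lies at chr4:156200855-156200916 on the minus strand and holds 3 overlapping matches. The Ifit1 stretch lies at chr19:34640765-34640833 and the Ifit3 stretch at chr19:34583353-34583436, both on the plus strand with 2 separate matches each. The Oas1a stretch at chr5:120907526-120907565 (minus strand) holds 2 overlapping matches, and those of Rsad2 at chr12:26456543-26456592 and Oas3 at chr5:120777705-120777754 (both minus strand) hold 1 match each. A match is a description of the letters and not a bound site.

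Low FPKM values fell on steps that correspond to 20100000 (naive 1) to 33300000 (MLN-primed 3) fragments per library, an estimate explained with the processing. The naive libraries were the shallowest on the whole, at up to 25200000 against at least 25200000 in the primed ones, and total FPKM were 612887 to 720165. The CD8 T cell markers Cd8a, Cd8b1, Cd3e, Cd3d and Cd3g summed to 2894 to 3203 FPKM in naive, 1980 to 2040 in the spleen-primed and 1377 to 1458 in the MLN-primed libraries. Relative to gene means over all 9 libraries, the trend of FPKM with transcript length was positive in naive and negative in primed libraries. It was 0.110 to 0.185 in naive and -0.165 to -0.004 in primed libraries, on the log2 scale per doubling of length. Naive 2, spleen-primed 1 and MLN-primed 1 stood apart in 1 respect: each had the most negative trend of FPKM with transcript length in its group (-0.05, -0.05 and -0.09 on the log2 scale per doubling of length). These were also the libraries with the lowest value of their group for 25, 24 and 22 of the 31 tested members, against 44.8%, 40.9% and 46.5% of all tested genes.

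Summed over the 34 genes, FPKM were 792.8, 612.5 and 727.9 in naive 1 to 3, 434.3, 447.7 and 459.6 in spleen-primed 1 to 3, and 295.5, 318.3 and 313.1 in MLN-primed 1 to 3. The sums did not overlap between any of the 3 groups, with naive cells highest and MLN-primed cells lowest. Ifi47 and Bst2 gave the largest parts of each sum. In bulk RNA, fewer cells of a type and less RNA per cell cannot be told apart.

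**Figure D1:**
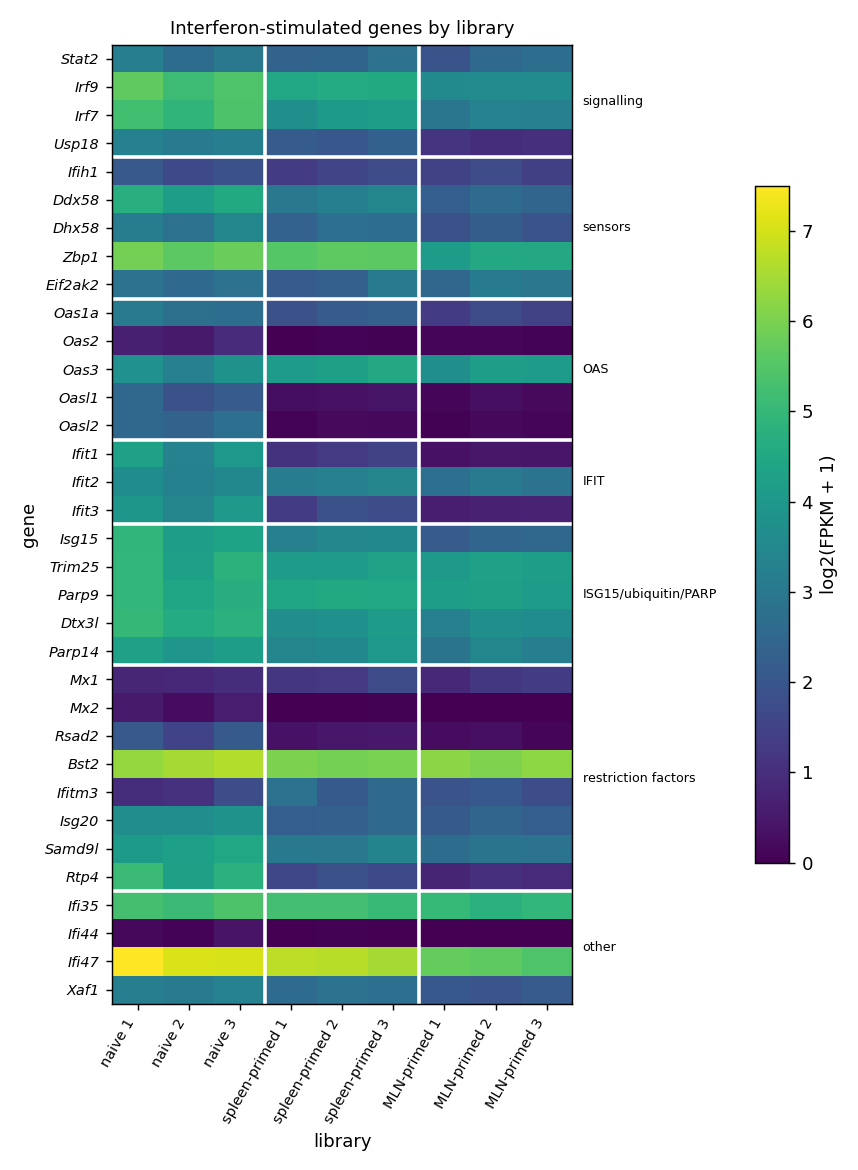
Levels of the 34 interferon-stimulated genes as log2(FPKM + 1) (colour) in each of 9 libraries (columns), with genes in rows grouped by role. Most rows darken from naive through spleen-primed to MLN-primed libraries, Bst2 and Ifi47 stay bright in all 3 groups, and Oas3 and Ifitm3 are brightest in the spleen-primed libraries.

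Between the primed groups the interferon-stimulated genes were lower in MLN-primed cells or did not pass the test. In limma (adjusted p under 0.05, Benjamini-Hochberg over 10185 genes) 14 of the 31 tested members were lower and 0 were higher. Of all tested genes 13.1% were lower and 17.3% higher by the same rule, 30.4% in either direction. At an unadjusted limma p under 0.05 0 were higher, and without spleen-primed 3 the adjusted count was 1, Eif2ak2. The median log2 difference was -0.40 against 0.03 over all tested genes. Without the 3 genes that passed the filter in naive libraries alone, 14 of 28 were lower and the median was -0.53. Median-of-ratios scaling turned the balance of all genes from 1760 higher and 1333 lower to 1376 and 1605, with 17 members lower and 0 higher at the threshold. Every log2 difference here is of FPKM + 1, which understates changes of low genes. The values of 13 genes, those lower by at least 0.5, follow by role.

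The signalling members Irf9, Irf7 and Usp18 were lower in MLN-primed cells. Irf9, the DNA-binding subunit of ISGF3, was at 49.7, 34.5 and 42.6 FPKM in the naive, 21.2, 23.5 and 22.3 in the spleen-primed and 11.1, 11.4 and 11.3 in the MLN-primed libraries. The groups did not overlap, and the MLN-primed libraries lay close together at the lowest level. MLN-primed cells held 1.98-fold less Irf9 than spleen-primed cells (log2 difference -0.93 ± 0.11 SE, limma adjusted p = 4.01e-04). Irf7, the factor that amplifies interferon production and is itself induced by ISGF3, was at 36.4, 28.8 and 41.0 FPKM in naive, 12.2, 16.04 and 16.9 in the spleen-primed and 6.65, 8.99 and 8.69 in the MLN-primed libraries. Again the 3 groups did not overlap, and the difference between the primed groups was -0.81 ± 0.16 (limma adjusted p = 0.00447).

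Usp18, which removes ISG15 from proteins and dampens signalling at IFNAR2, was at 8.82, 7.50 and 8.16 FPKM in naive, 3.52, 3.12 and 4.05 in the spleen-primed and 1.17, 0.975 and 1.02 in the MLN-primed libraries. Every MLN-primed library lay below every spleen-primed one, by 3.39-fold in the means (-1.15 ± 0.10, limma adjusted p = 6.91e-05). Stat2, the ISGF3 subunit that carries the activation domain, did not pass. It lay between 4.23 and 6.15 FPKM in the spleen-primed and between 2.79 and 5.55 in the MLN-primed libraries, which overlap (-0.15 ± 0.22, limma adjusted p = 0.649), and its sign turned without MLN-primed 1 (0.08).

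Of 5 sensors of viral nucleic acid, 3 were lower in MLN-primed cells. Zbp1, a sensor of Z-form nucleic acid that can start necroptosis, was at 59.8, 48.2 and 53.7 FPKM in naive, 45.2, 48.7 and 47.9 in the spleen-primed and 16.7, 21.9 and 22.01 in the MLN-primed libraries. Naive and spleen-primed libraries overlapped, and the MLN-primed libraries lay apart below both. The difference between the primed groups was 2.34-fold (-1.20 ± 0.11, limma adjusted p = 9.77e-05), while spleen-primed against naive cells did not pass (-0.18 ± 0.11, limma adjusted p = 0.172). That call was made under median-of-ratios scaling, under quantile normalisation and after removal of the length trend, with Zbp1 lower in the spleen-primed cells.

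Ddx58, which encodes the RNA sensor RIG-I, was at 24.9, 17.4 and 22.7 FPKM in naive, 7.07, 8.36 and 9.96 in the spleen-primed and 3.77, 5.12 and 4.39 in the MLN-primed libraries. The 3 groups were separate, and the primed groups differed by -0.80 ± 0.16 (limma adjusted p = 0.00428). Dhx58, which encodes the related regulator LGP2, was at 7.87, 5.95 and 9.97 FPKM in naive, 4.13, 5.61 and 5.53 in the spleen-primed and 2.62, 3.64 and 2.75 in the MLN-primed libraries. The lowest spleen-primed value lay just above the highest MLN-primed one. Its call (-0.60 ± 0.18, limma adjusted p = 0.0269) ended with no filter (-0.60) and without spleen-primed 2 (-0.54), spleen-primed 3 (-0.55), MLN-primed 1 (-0.54) or MLN-primed 3 (-0.56).

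The other sensors did not pass between the primed groups. Ifih1, which encodes the long-RNA sensor MDA5, was at 1.54 to 2.32 FPKM in the spleen-primed and 1.70 to 2.30 in the MLN-primed libraries (limma adjusted p = 0.986). Its difference was near 0 and of either sign when single libraries were left out. Eif2ak2 encodes PKR, the kinase that stops translation on double-stranded RNA. It was at 3.56, 3.94 and 7.41 FPKM in the spleen-primed and 4.60, 7.57 and 6.90 in the MLN-primed libraries, so that spleen-primed 3 lay among the MLN-primed values (0.33 ± 0.23, limma adjusted p = 0.324). Without spleen-primed 3 the difference was 0.61 (limma adjusted p = 0.0329), a call of higher Eif2ak2 in MLN-primed cells.

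Among the oligoadenylate synthetases, enzymes that make the messenger that activates RNase L, Oas1a alone of 4 tested passed between the primed groups. It was at 7.74, 5.77 and 5.56 FPKM in naive, 2.60, 3.51 and 3.90 in the spleen-primed and 1.52, 2.32 and 1.73 in the MLN-primed libraries. These did not overlap, with a small gap between the primed groups (-0.60 ± 0.16, limma adjusted p = 0.018). The call ended without spleen-primed 2 (-0.56), spleen-primed 3 (-0.50) or MLN-primed 3 (-0.57). Reads of Oas1a can be split with near-identical Oas1 copies of the mouse cluster on chromosome 5. Oas3, the large synthetase of the same cluster, was at 8.59 to 13.1 FPKM in naive, 16.8 to 22.1 in the spleen-primed and 12.4 to 17.0 in the MLN-primed libraries. The primed groups overlapped (-0.31 ± 0.17, limma adjusted p = 0.217).

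The synthetase-like genes Oasl1 and Oasl2 were near 0 in both primed groups. Oasl1, a brake on Irf7 translation, was at 2.67 to 4.85 FPKM in naive, 0.203 to 0.338 in the spleen-primed and 0.0766 to 0.240 in the MLN-primed libraries. Oasl2, an antiviral synthetase-like protein, was at 4.27 to 5.69 FPKM in naive, at most 0.138 in the spleen-primed and at most 0.119 in the MLN-primed libraries, which the estimated depth puts at 4.0 to 10.9 and 3.0 to 8.9 fragments. Oas2 was at 0.448 to 0.924 FPKM in naive libraries and at most 0.106 in primed ones, and was listed at 0 in spleen-primed 1.

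All 3 IFIT genes were lower in MLN-primed cells. The product of Ifit1 binds viral RNA that lacks a host cap mark. Ifit1 was at 18.7, 9.04 and 15 FPKM in naive, 1.16, 1.44 and 1.71 in the spleen-primed and 0.296, 0.396 and 0.379 in the MLN-primed libraries. The estimated fragments behind the MLN-primed values were 19.5 to 31.5, and no groups overlapped. MLN-primed cells held 4.02-fold less FPKM than spleen-primed cells, which is -0.84 ± 0.21 on the log2(FPKM + 1) scale (limma adjusted p = 0.0132) and -1.74 with 0.1 added in place of 1. Ifit3 was at 14.6, 9.76 and 15.7 FPKM in naive, 1.52, 2.60 and 2.34 in the spleen-primed and 0.563, 0.598 and 0.641 in the MLN-primed libraries. These also fell into 3 separate ranges, with 3.58-fold less in MLN-primed than in the spleen-primed cells (-0.96 ± 0.18, limma adjusted p = 0.00308). Reads of Ifit3 can be split with a near-identical copy in the mouse genome.

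Ifit2 lies next to Ifit3 and Ifit1 on chromosome 19 but differed less. It was at 8.90 to 11.4 FPKM in naive, 7.92 to 9.65 in the spleen-primed and 5.61 to 7.29 in the MLN-primed libraries (-0.40 ± 0.12, limma adjusted p = 0.0287). Naive and spleen-primed libraries overlapped, and the primed groups did not. The call ended with no filter (-0.40) and without spleen-primed 2 (-0.41), spleen-primed 3 (-0.34), MLN-primed 1 (-0.33) or MLN-primed 3 (-0.39).

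Of the genes of ISG15, ubiquitin and ADP-ribose conjugation, Isg15 itself was lower in MLN-primed cells. This ubiquitin-like protein is attached to other proteins after interferon exposure. It was at 29.8, 17.3 and 19.4 FPKM in naive, 8.65, 10.1 and 10.3 in the spleen-primed and 3.44, 4.42 and 4.81 in the MLN-primed libraries. Each group had its own range, and MLN-primed cells held 2.30-fold less than spleen-primed cells (-1.04 ± 0.18, limma adjusted p = 0.00243).

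The remaining 4 of that role did not pass between the primed groups. Trim25, a ubiquitin ligase that acts on RIG-I, was at 16.7 to 19.0 FPKM in the spleen-primed and 15.8 to 18.7 in the MLN-primed libraries, which overlap (limma adjusted p = 0.963). Parp9 and Dtx3l, whose products form a complex of an ADP-ribosyltransferase family member and a ubiquitin ligase, were at 20.2 to 22.3 against 16.8 to 18.4 FPKM and at 12.1 to 16.6 against 8.703 to 12.4 FPKM (limma adjusted p = 0.125 and 0.154). Parp9 passed as lower with the libraries of both primed groups fitted alone and without naive 1 or naive 2 (-0.28 in each). Their RefSeq spans on chromosome 16 overlap by 557 bases, and the labels do not say whether quantification used strand, so reads of that stretch are uncertain. Parp14, an ADP-ribosyltransferase of the same locus, was at 9.69 to 14.9 against 6.35 to 9.79 FPKM (-0.47 ± 0.18, limma adjusted p = 0.0797), and it passed as lower with median-of-ratios scaling (-0.52), with quantile normalisation (-0.48) and after removal of the length trend (-0.48).

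Among factors that restrict virus entry, replication or release, Rtp4 was lower in MLN-primed cells. Rtp4, a receptor-transporting protein with antiviral activity, was at 33.9, 18.3 and 26.6 FPKM in naive, 1.99, 2.63 and 2.13 in the spleen-primed and 0.718, 1.03 and 0.863 in the MLN-primed libraries. The naive libraries lay far above the primed ones, and the primed groups did not overlap either (-0.80 ± 0.19, limma adjusted p = 0.0106).

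Bst2, which encodes tetherin and holds virus particles at the cell surface, was the single one of the 31 tested members whose primed libraries were separate with the MLN-primed ones higher. Among the 3 members not tested, Oas2 was separate the same way at levels near 0. Bst2 was at 59.9 to 63.7 FPKM in the spleen-primed and 64.9 to 73.4 in the MLN-primed libraries, a difference that did not pass (0.17 ± 0.09, limma adjusted p = 0.176). Counted by separation, 20 of the 31 tested members had primed groups that did not overlap, 19 of them with MLN-primed cells lower, and 46.1% of all tested genes had none. Ifitm3, which blocks fusion of virus with endosomes, was at 3.38 to 6.14 FPKM in the spleen-primed and 2.44 to 3.22 in the MLN-primed libraries (-0.59 ± 0.23, limma adjusted p = 0.0741). It passed as lower without naive 3 (-0.59) or spleen-primed 2 (-0.79).

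Isg20, an RNA exonuclease, was at 3.75 to 5.01 against 3.40 to 4.41 FPKM, and Samd9l, which halts translation in infected cells, at 7.05 to 9.39 against 5.31 to 6.43 FPKM (limma adjusted p = 0.523 and 0.0846). Samd9l passed as lower with median-of-ratios scaling (-0.39), with the replicate block (-0.34) and after removal of the length trend (-0.35). Viperin, the product of Rsad2, is an enzyme that makes a chain-terminating nucleotide. It was at 0.30, 0.391 and 0.424 FPKM in the spleen-primed and 0.187, 0.238 and 0.0823 in the MLN-primed libraries, separate but low (limma adjusted p = 0.302, and 0.0586 with 0.1 added in place of 1). The dynamin-like GTPase Mx1 was at 1.28 to 2.33 against 0.829 to 1.52 FPKM (limma adjusted p = 0.29), and Mx2 was at most 0.0309 FPKM in all primed libraries and listed at 0 in 2 of them.

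The last 4 members are induced genes of other or less settled roles. Ifi47, the immunity-related GTPase, was the most abundant member in naive and spleen-primed cells, at 179.9, 134.1 and 132.2 FPKM in naive, 107.1, 102.8 and 88.7 in the spleen-primed and 52.1, 48.6 and 42.5 in the MLN-primed libraries. The 3 ranges were separate, and MLN-primed cells held 2.08-fold less than spleen-primed cells (-1.05 ± 0.13, limma adjusted p = 4.06e-04). Xaf1, an antagonist of the apoptosis inhibitor XIAP, was at 8.28, 7.28 and 8.98 FPKM in naive, 5.19, 6.21 and 5.66 in the spleen-primed and 3.16, 2.90 and 3.43 in the MLN-primed libraries. It too was lowest in every MLN-primed library (-0.68 ± 0.10, limma adjusted p = 0.00103). Ifi35, a leucine zipper protein, was at 32.9 to 37.3 against 26.6 to 31.5 FPKM (-0.27 ± 0.10, limma adjusted p = 0.0569). It passed as lower with median-of-ratios scaling (-0.33) or quantile normalisation (-0.31), after removal of the length trend (-0.27), and without naive 2 (-0.27), spleen-primed 3 (-0.33) or MLN-primed 1 (-0.32). Ifi44 was at most 0.0272 FPKM in primed libraries, and was listed at 0 in MLN-primed 2 and 3.

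**Figure D2:**
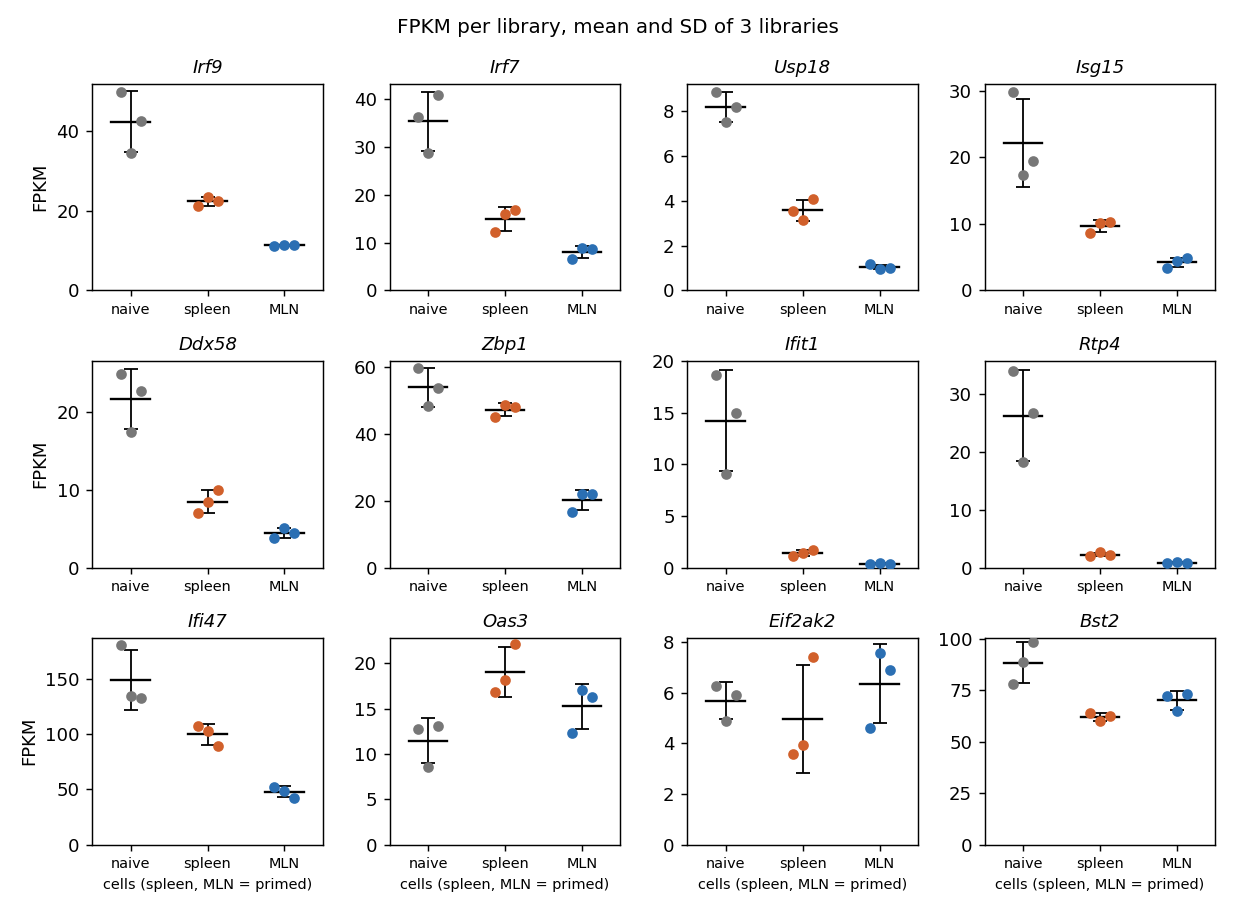
FPKM (vertical axis, linear from 0) of 12 interferon-stimulated genes in naive, spleen-primed and MLN-primed cells, with 1 point per library, the mean as a bar and the SD over 3 libraries as whiskers. For Irf9, Irf7, Usp18, Isg15, Ddx58, Ifit1, Rtp4 and Ifi47 the points form 3 separate steps down, Zbp1 drops in the MLN-primed libraries alone, and Oas3, Eif2ak2 and Bst2 do not follow that order.

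The members called lower in MLN-primed cells were also counted by transcript length and by promoter. Of 15 tested members with a transcript shorter than the median of 2459 bases, 10 were lower in MLN-primed cells (median log2 difference -0.68), and of 16 at or above that length 4 were (median -0.29). Of all tested genes with a known length 15.6% of the shorter and 11.2% of the longer class were lower. After removal of the trend with length from each library 17 of 31 were lower and 0 higher, beside 1472 lower and 1961 higher among all tested genes. In the fit that left out both spleen-primed 3 and MLN-primed 1, 12 were lower, 1 was higher (Eif2ak2, 0.79) and the median was -0.26. Of all tested genes 1375 were lower and 2517 higher in that fit, with a median of 0.06. Of 12 tested members with the response element core in the promoter window 5 were lower (median -0.45), of 12 with a window and no core 5 were lower (median -0.33), and of 7 without a window 4 were lower (median -0.60). Of all tested genes 13.1% were lower. Their shares by promoter class were not computed, so nothing is read from these 3 counts.

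**Figure D3:**
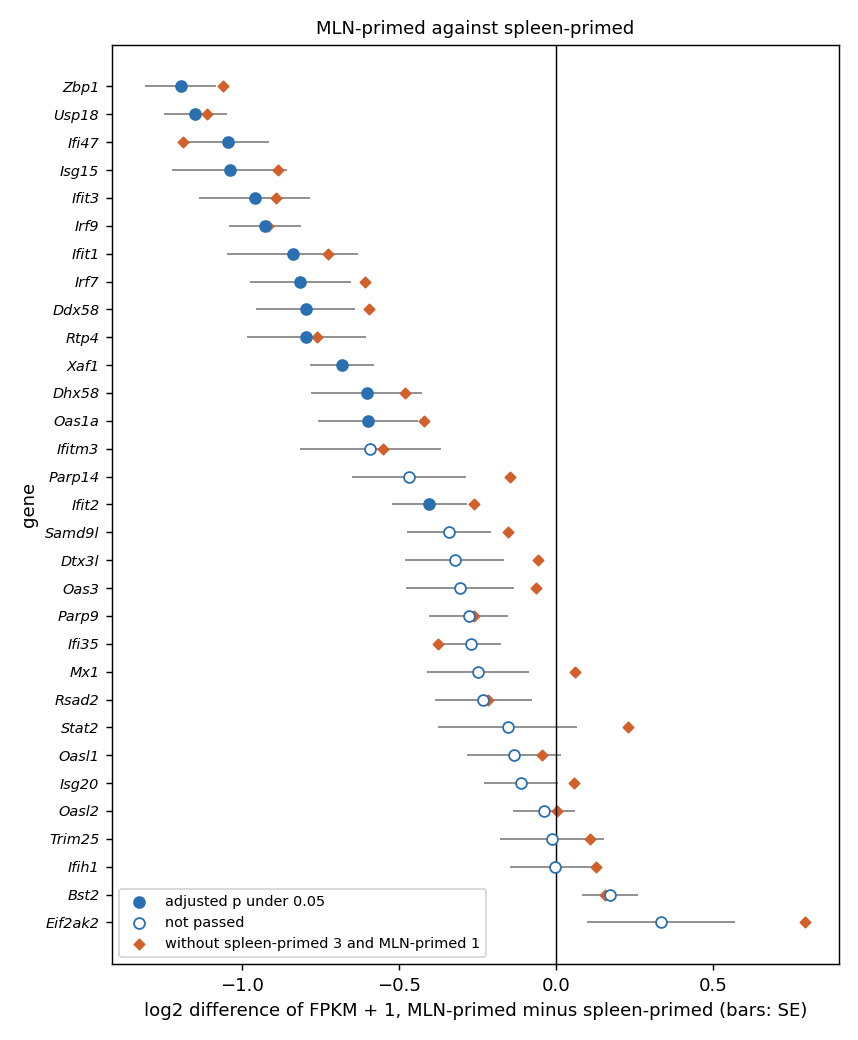
Log2 difference of FPKM + 1, MLN-primed minus spleen-primed (horizontal axis; circles with SE bars; filled where the limma adjusted p was under 0.05), for the 31 tested members, with diamonds for the fit without spleen-primed 3 and MLN-primed 1. All 14 filled circles lie left of 0, from Zbp1 at -1.20 to Ifit2 at -0.40, and Eif2ak2 and Bst2 are the members on the right.

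Against naive cells, most of these genes were lower in both primed groups. Both comparisons use the same naive libraries, so their values are set side by side and not counted as separate evidence. In spleen-primed cells 21 of 31 tested members were lower than in naive cells and 3 higher (limma), where 32.7% of all tested genes were lower, 43.1% higher and 75.8% changed either way. In MLN-primed cells 26 were lower and 1 higher, against 33.2% lower, 45.5% higher and 78.7% either way among all tested genes. Median log2 differences were -0.56 and -1.36, and those of all tested genes 0.10 and 0.15. After removal of the trend with length, 21 members were lower and 3 higher in the spleen-primed cells, and 24 and 1 in MLN-primed cells. Of all tested genes 3265 were then lower and 4431 higher in the spleen-primed cells, and 3313 and 4712 in MLN-primed cells. Without the 3 members that passed the filter in naive libraries alone and Mx1, which passed in primed libraries alone, 27 members were left. In the spleen-primed cells 18 of these were lower and 2 higher (median -0.54), and in MLN-primed cells 23 were lower and 1 higher (median -1.24). Ranges were separate from naive in 22 members for spleen-primed cells (19 lower and 3 higher), where 78.2% of all tested genes were. For MLN-primed cells 25 were separate (24 lower and 1 higher), beside 80.4% of all tested genes. In the spleen-primed cells 12 of 15 members shorter than 2459 bases were lower than in naive cells and 1 higher. Of 16 longer ones 9 were lower and 2 higher. Of all tested genes with a known length 24.21% of the shorter and 38.74% of the longer class were lower, and 54.37% and 35.13% higher. In MLN-primed cells 14 shorter and 12 longer members were lower, beside 25.67% and 38.55% of genes, and 1 and 0 were higher, beside 56.48% and 37.88%.

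Rtp4, Ifit1 and Ifit3 fell furthest among members still above 1 FPKM in the spleen-primed cells. Rtp4 fell by 3.03 ± 0.19 in the spleen-primed and by 3.83 ± 0.19 in MLN-primed cells on the log2 scale (limma adjusted p = 2.46e-07 and 3.44e-08), from 26.3 ± 7.81 FPKM in naive to 2.25 ± 0.336 and 0.870 ± 0.155 (mean ± SD, n = 3). Ifit1 fell by 2.60 and 3.44, and Ifit3 by 2.18 and 3.14, while Ifit2 changed by -0.20 (not passed) and -0.61. So neighbours on chromosome 19 had unlike ranges: MLN-primed cells held 39.9-fold less Ifit1, 22.3-fold less Ifit3 and 1.60-fold less Ifit2 than naive cells. In the spleen-primed cells Ifit2 passed as lower than in naive cells with median-of-ratios scaling (-0.28) and with quantile normalisation (-0.26).

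The signalling and sensor genes differed from naive cells by less. Irf9 changed by -0.88 in the spleen-primed and by -1.80 in MLN-primed cells, Irf7 by -1.18 and -2.00, Usp18 by -1.01 and -2.16, and Ddx58 by -1.25 and -2.05, and all of these passed. Dhx58 fell by 0.54 and 1.14, with the spleen-primed call ending without naive 3 (-0.38) or spleen-primed 1 (-0.42). Stat2 was at -0.40 (limma adjusted p = 0.122) and -0.56 (limma adjusted p = 0.0404), and the MLN-primed call ended under no filter, after removal of the length trend and without naive 1, naive 3, spleen-primed 2 or MLN-primed 1. In the spleen-primed cells Stat2 passed as lower with median-of-ratios scaling (-0.48), without MLN-primed 1 (-0.40) and without it and spleen-primed 3 (-0.55). Ifih1 did not pass in either group (-0.31 and -0.32), nor did Eif2ak2 (-0.21 and 0.12). In other settings Ifih1 passed as lower in 4 of 18 for spleen-primed and 3 of 18 for MLN-primed cells. Without spleen-primed 3 Eif2ak2 passed as lower in the spleen-primed cells (-0.49). Without spleen-primed 3 and MLN-primed 1 together it also passed as higher in MLN-primed cells (0.30).

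Isg15 fell by 1.08 and 2.12, Dtx3l by 0.92 and 1.24, and Parp14 by 0.49 and 0.96. Trim25 fell by 0.47 and 0.48, although naive 2 at 17.9 FPKM lay within the primed ranges. The spleen-primed calls of Trim25 and Parp14 ended without naive 1, naive 3, spleen-primed 1 or spleen-primed 2, with no filter and after removal of the length trend. The MLN-primed call of Trim25 ended without naive 1, naive 3 or MLN-primed 1 and after removal of that trend. Parp9 passed in MLN-primed cells alone (-0.19 and -0.47), which does not show that the groups differ, since the test between them did not pass. In the spleen-primed cells Parp9 passed as lower with quantile normalisation (-0.50) and without naive 2 (-0.33).

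Oasl2 and Oasl1 fell by 2.41 and 1.85 in the spleen-primed and by 2.45 and 1.99 in MLN-primed cells, Rsad2 by 1.46 and 1.69, Isg20 by 1.37 and 1.48, and Samd9l by 1.13 and 1.47. Oas1a fell by 0.76 and 1.36, Ifi47 by 0.56 and 1.61, Xaf1 by 0.46 and 1.14, and Bst2 by 0.50 and 0.32. Ifi35 was at -0.07 (not passed) and -0.35. Its spleen-primed value passed as lower with quantile normalisation (-0.46) and after removal of the length trend (-0.30). The untested Mx2 and Ifi44 were at 0.192 to 0.490 and 0.0431 to 0.307 FPKM in naive libraries, above every primed library.

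Oas3 and Ifitm3 rose in the spleen-primed cells, and Mx1 passed as higher, with the limit given above on how it came to be tested. Oas3 rose by 0.70 ± 0.17 (limma adjusted p = 0.00418), from 11.5 ± 2.495 to 19.1 ± 2.76 FPKM (mean ± SD, n = 3), and all 3 spleen-primed libraries were above all naive ones. Mx1 was at 0.740, 0.776 and 0.985 FPKM in naive and 1.28, 1.36 and 2.33 in the spleen-primed libraries, separate though low (0.52 ± 0.16, limma adjusted p = 0.0151). Ifitm3 was at 0.986, 1.11 and 2.40 FPKM in naive, 6.14, 3.38 and 5.09 in the spleen-primed and 2.82, 3.22 and 2.44 in the MLN-primed libraries. It rose by 1.25 ± 0.23 in the spleen-primed cells (limma adjusted p = 5.79e-04) and by 0.65 ± 0.23 in MLN-primed cells (limma adjusted p = 0.0221). The latter call ended with no filter, after removal of the length trend and without naive 1, naive 2 or MLN-primed 2. In MLN-primed cells Oas3 (0.39) and Mx1 (0.27) did not pass. Oas3 passed as higher there with the replicate block (0.39), after removal of the length trend (0.59), and without naive 3 (0.49) or MLN-primed 1 (0.53). Mx1 did so with the block (0.27) and without MLN-primed 1 (0.40).

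**Figure D4:**
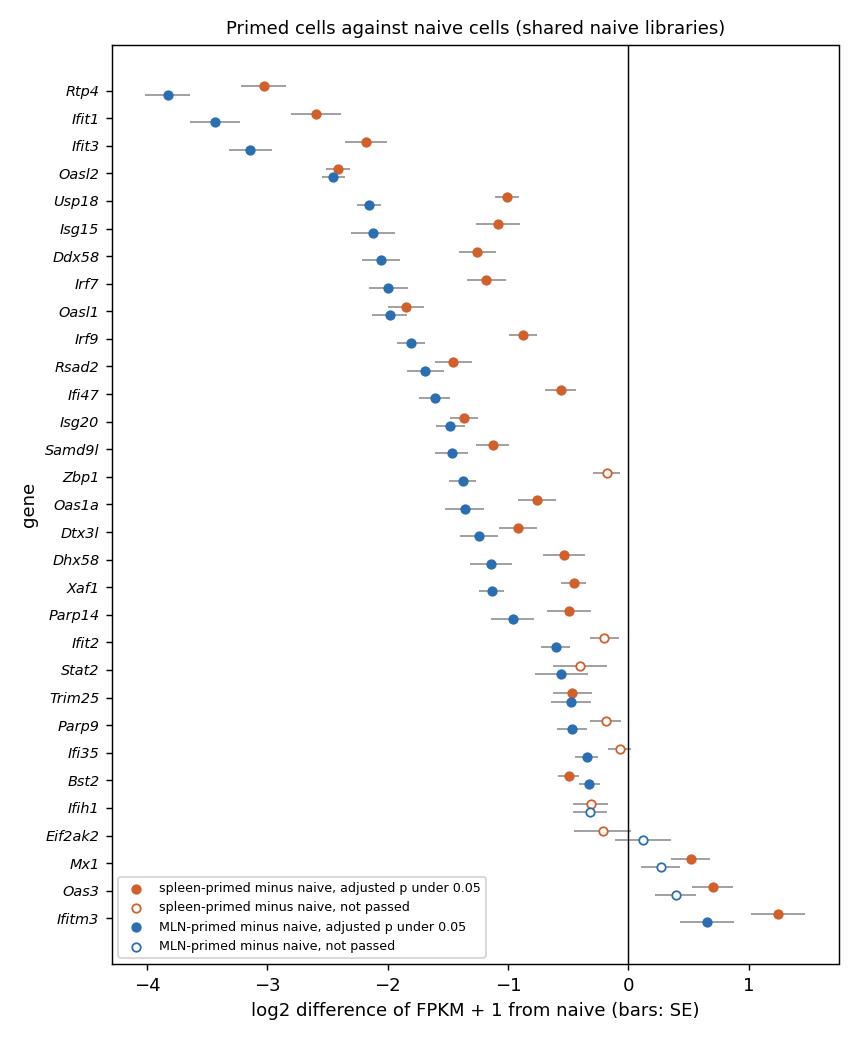
Log2 difference of FPKM + 1 from naive (horizontal axis, SE bars) in the spleen-primed (orange) and MLN-primed (blue) cells for the 31 tested members, filled where the limma adjusted p was under 0.05. The MLN-primed symbols of Rtp4, Ifit1 and Ifit3 lie furthest left, Oasl2 and Oasl1 have both symbols close together, and Oas3, Mx1 and Ifitm3 lie right of 0.

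Genes upstream of the set were described with lists chosen for the pathway. Of 10 genes of the type I receptor and its signalling 6 were lower in MLN-primed than in the spleen-primed cells and 0 higher, where 13.1% and 17.3% of all tested genes were. The median was -0.41, and the counts were the same with median-of-ratios scaling (median -0.46) and with quantile normalisation (median -0.42). The receptor chain gene Ifnar1 was at 20.2 ± 1.64 FPKM in naive, 10.8 ± 0.846 in the spleen-primed and 7.47 ± 0.476 in MLN-primed cells (means of 3 libraries ± SD, n = 3; -0.48 between the primed groups, limma adjusted p = 0.00343). Ifnar2, the signalling chain partner, was at 24.7 ± 0.920, 28.5 ± 2.61 and 18.0 ± 0.733 FPKM (-0.63, limma adjusted p = 4.59e-04).

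The kinase gene Jak1 was at 220.7 ± 5.998, 201.4 ± 14.2 and 114.3 ± 15.9 FPKM in the naive, spleen-primed and MLN-primed cells. It was lower in MLN-primed than in the spleen-primed cells (-0.82, limma adjusted p = 3.65e-04), and its naive and spleen-primed libraries overlapped. Socs3, a feedback inhibitor of JAK kinases, was at 31.4 ± 4.69, 2.21 ± 0.263 and 1.22 ± 0.149 FPKM (-0.53, limma adjusted p = 0.00776). Their part in the lower levels of the 14 members was not tested.

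The interferon genes themselves gave almost no signal. The table holds 18 interferon genes, and 15 of them, among them Ifnb1 and Ifna4, were listed at 0 in all 9 libraries. Interferon gamma, the type II interferon that effector T cells secrete and that induces some of the same genes, was the exception. Ifng was at 0.0466, 2.55 and 0.337 FPKM in naive, 19.3, 13.1 and 14.4 in the spleen-primed and 5.84, 4.88 and 7.71 in the MLN-primed libraries. Spleen-primed libraries held the most and naive libraries the least, and MLN-primed cells were 2.54-fold below spleen-primed cells (-1.22 ± 0.38, limma adjusted p = 0.0366). The call ended with 0.1 added in place of 1 and without spleen-primed 3 and MLN-primed 1 together.

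Of 8 tested genes of the interferon gamma arm 2 were lower in MLN-primed than in the spleen-primed cells, the receptor chain gene Ifngr1 (-0.54) and the transcription factor gene Irf1 (-0.66). The tRNA synthetase gene Wars, a gamma-induced gene, was higher (0.29), and the median was -0.16. Of 13 tested adaptors and kinases of nucleic acid sensing 1 was higher, the inflammasome sensor gene Aim2 (0.91), 0 were lower at the threshold and the median was 0.00. By the same measure 30.4% of all tested genes had changed.

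Markers of other cell types moved between the groups too. A list of 12 myeloid and dendritic cell markers summed to 85.2 to 159.0 FPKM in naive, 51.8 to 52.3 in the spleen-primed and 19.7 to 22.2 in the MLN-primed libraries, with 6 of 12 under 1 FPKM in every naive library. Naive 1 had the lowest of these sums among naive libraries and the highest summed FPKM of the 34 interferon-stimulated genes. The latter rank varied with the measure. By the mean log2(FPKM + 1) of tested members naive 1 was highest (3.977, naive 3 at 3.926), and by the median naive 3 was (4.0, naive 1 at 3.965). For plasmacytoid dendritic cells, strong makers of type I interferon, 7 markers summed to 35.1 to 46.0 FPKM in naive, 0.885 to 1.09 in the spleen-primed and 17.1 to 24.1 in the MLN-primed libraries. The chemokine receptor gene Ccr9, which T cells also express, made up most of the naive and MLN-primed sums and was higher in MLN-primed than in the spleen-primed cells (4.33). The other 6 were under 1 FPKM in all 9 libraries. Siglech and Klk1 of that list were listed at 0 in all spleen-primed libraries. Clec9a, Flt3 and Cd14 of the myeloid list were at 0 in all MLN-primed libraries. That list moved both ways: of its 6 tested genes 4 were lower and 2 higher than in naive cells in both primed groups. The 2 higher ones were Itgam (4.57 in the spleen-primed and 2.95 in MLN-primed cells) and Cd68 (3.02 and 2.10), and both were lower in MLN-primed than in the spleen-primed cells (-1.61 and -0.93). Markers of NK cells (Ncr1, Klrb1c, Eomes, Tyrobp, Klra8 and Klra4) summed to 9.78 to 22.3, 28.2 to 32.8 and 12.1 to 14.0 FPKM in the same order of groups. Of these 6 genes, 3 were under 1 FPKM in every naive library, 3 in every spleen-primed and 5 in every MLN-primed library. Markers of CD4 T cells rose, at 15.32 to 18.54, 19.35 to 29.21 and 30.81 to 38.48 FPKM in the same order. Those of B cells summed to 11.22 to 14.96, 7.79 to 9.206 and 11.88 to 15.78, lowest in the spleen-primed libraries. Epithelial and stromal markers summed to 38.16 to 44.85, 4.014 to 5.429 and 3.979 to 5.59, highest in naive libraries. Red cell markers overlapped between the groups, at 8.138 to 56.83, 2.925 to 30.12 and 0.3459 to 60.08. Which cells expressed the markers was not tested. The part of other cell types in the member levels was not tested either.

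**Figure D5:**
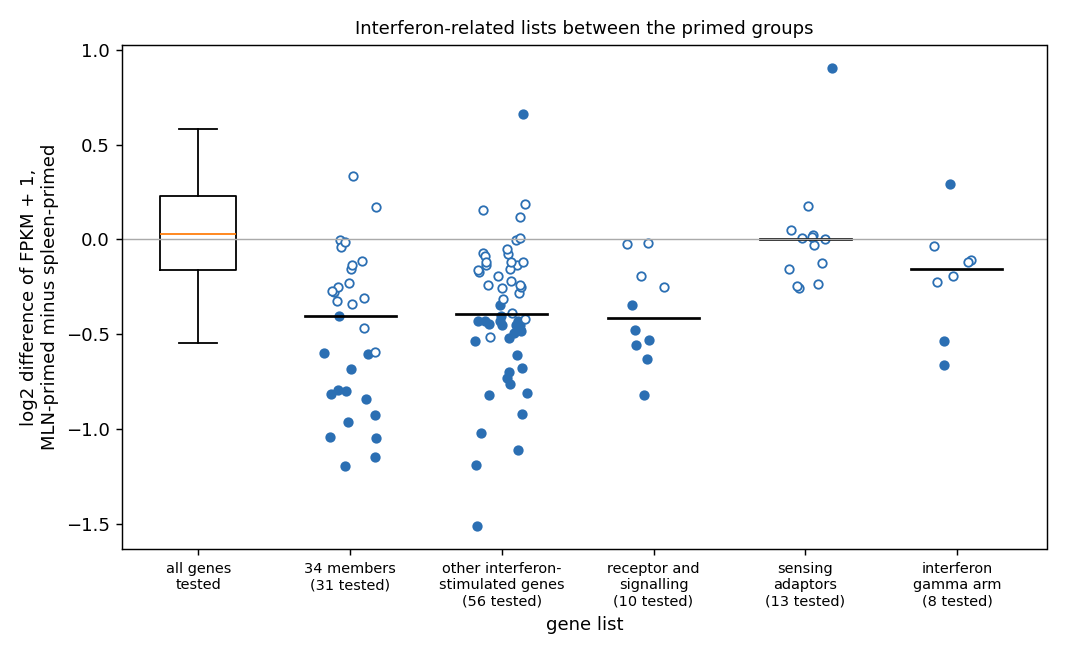
Log2 difference of FPKM + 1, MLN-primed minus spleen-primed (vertical axis), for each tested gene of 5 lists, drawn as points. Points are filled where the limma adjusted p was under 0.05, and a bar marks the median of each list. Beside them is a box of all 10185 tested genes, with the quartiles as its edges. The whiskers end at a low and a high percentile of these genes, and values beyond them are not drawn. The members, the other interferon-stimulated genes and the receptor genes have medians of -0.40, -0.39 and -0.41, while the sensing adaptors lie around 0.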

How the data were processed

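RNA of 9 libraries was extracted with a Qiagen micro kit and made into stranded mRNA libraries, per the labels' protocols. The authors deposited FPKM per gene. The submitters' processing notes name TopHat, Cufflinks and the build mm10; their versions, any filter and the treatment of strand are not stated. A deposited transcript table was identical to the gene table and was not used. Of 24067 rows 131 had no symbol (0.0479% of FPKM) and were left out, and 0 sample columns were unmapped.

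Genes with 1 FPKM in 3 libraries were tested as log2(FPKM + 1) without further scaling, by limma 3.58.1 (trend) in R 4.3.3 over all 9 libraries, two-sided, with Benjamini-Hochberg adjustment over the genes tested. Tables and plots used Python 3.11.15, numpy 2.4.6, pandas 2.3.3 and matplotlib 3.10.9. FPKM do not list read numbers. Multiplied by transcript length less 140 to 180 bases, low values fell within 0.15 of a whole multiple of 1 step in 73.7% to 76.5% of 1099 to 1173 values per library, against 30.0% by chance, and the step gave the estimated depth. It was used to describe, not to test. Data were also simulated from the gene means and the within-group spread of all 9 libraries, with 200 of 10185 genes changed in the MLN-primed group. Against the spleen-primed group 57.0% of log2 changes of 0.5 and 91.6% of 1.0 were recovered, with 4.98% false calls. The measured comparison called 30.4% of tested genes, so these rates describe the simulated setting alone.

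Members, lists and tests were chosen with earlier results of these data known. Values by library are given for members that passed between the primed groups with a log2 difference of at least 0.5, and for others by range, except a few named for their position after values were seen. Of other lists at most the 5 largest passing genes are named, and 1 gene that meets this rule is not reported here. Other settings tried were 0.1 as the pseudocount, a filter of 5 FPKM or none, median-of-ratios scaling, quantile normalisation, no variance trend, only the groups compared, a replicate block and each library left out. Removal of a length trend (GENCODE lengths) and leaving out spleen-primed 3 with MLN-primed 1 were tried as well, the former added after seeing the data. Promoters came from RefSeq, GRCm38.p6.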

Additional observations from a re-analysis of the deposited data

Results flagged for a closer look

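The 14 members below are those called lower in MLN-primed than in the spleen-primed cells, set out as log2 changes of FPKM + 1 from naive cells. The test of the difference is the limma test between the primed groups given above, so the list is no further evidence. Both changes share the naive libraries, and the spleen-primed changes of Zbp1 and Ifit2 did not pass. Zbp1 changed by -0.18 in the spleen-primed and -1.38 in MLN-primed cells, a difference of -1.20, and Usp18 by -1.01 and -2.16, a difference of -1.15. Ifi47 changed by -0.56 and -1.61, a difference of -1.05, and Isg15 by -1.08 and -2.12, a difference of -1.04. For Ifit3 the changes were -2.18 and -3.14 (difference -0.96), for Irf9 -0.88 and -1.80 (difference -0.93), and for Ifit1 -2.60 and -3.44 (difference -0.84). Irf7 had -1.18 and -2.00 (difference -0.81), Ddx58 -1.25 and -2.05 (difference -0.80), and Rtp4 -3.03 and -3.83 (difference -0.80). Smaller differences were those of Xaf1 (-0.46 and -1.14, difference -0.68), Dhx58 (-0.54 and -1.14, difference -0.60), Oas1a (-0.76 and -1.36, difference -0.60) and Ifit2 (-0.20 and -0.61, difference -0.40).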

How the results depend on the processing

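Between the primed groups, 11 of the 14 calls held under all alternatives run, and Dhx58, Oas1a and Ifit2 lost theirs in some. The count of members lower ranged from 11 to 16 when single libraries were left out. The replicate numbers do not pair the libraries by the labels, and correlations of same-numbered deviations ran from -0.24 to 0.64, with 7 of 9 over 0.1; with the number as a block 15 members were lower and 0 higher. Of all tested genes 1440 were lower and 1942 higher between the primed groups with that block. Against naive cells the block gave 3 members higher in MLN-primed cells in place of 1. Of the members not called against naive cells, all 7 in the spleen-primed and all 4 in MLN-primed cells were called in some setting.

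Counts and medians that moved were these. With a filter of 5 FPKM the median of MLN-primed against spleen-primed was -0.60, 1 member was higher in the spleen-primed than in naive cells and 0 in MLN-primed than in naive cells; with no filter the latter was also 0. Quantile normalisation gave a median of -1.005 for spleen-primed against naive. Leaving out single libraries gave 0 to 1 members higher and 884 to 1389 genes lower between the primed groups, and 0 to 3 members higher in MLN-primed than in naive cells. Without spleen-primed 3 and MLN-primed 1 together, a choice known from an earlier analysis of these data, 1 member was higher in MLN-primed than in the spleen-primed and 4 than in naive cells. Of all tested genes 2517 and 4778 were higher in these 2 comparisons. The cause was not tested. Scaling moved the median over all genes of MLN-primed against naive from 0.15 to 0.02 (median-of-ratios) and -0.04 (quantile), and of spleen-primed against naive from 0.10 to 0.02 and -0.06.

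Signs turned for members near 0. Between the primed groups these were Ifih1 without spleen-primed 2 (0.0026), spleen-primed 3 (0.089), MLN-primed 1 (0.034) or MLN-primed 3 (0.049), Trim25 without spleen-primed 3 (0.044) or MLN-primed 1 (0.049), and Stat2 without MLN-primed 1 (0.084); over single libraries left out they ranged from -0.105 to 0.089, from -0.068 to 0.049 and from -0.31 to 0.084. Without spleen-primed 3 and MLN-primed 1 together they were Stat2 (0.23), Ifih1 (0.13), Trim25 (0.11), Mx1 (0.060), Isg20 (0.057) and Oasl2 (0.0023). For MLN-primed against naive Eif2ak2 turned under median-of-ratios scaling (-0.0063) and without MLN-primed 2 (-0.0028), with a range of -0.0028 to 0.30 over single libraries left out.

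Values of members under 1 FPKM rest on few fragments, and the log2(FPKM + 1) scale shrinks their differences.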

Other observations

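A further 65 interferon-stimulated genes outside the set were in the table, and 56 were tested. Of these, 27 were lower in MLN-primed than in the spleen-primed cells and 1 was higher (limma; 13.1% and 17.3% of all tested genes), with a median log2 difference of -0.39. Under median-of-ratios scaling 33 were lower, under quantile normalisation 31, and without spleen-primed 3 and MLN-primed 1 together 25 were lower and 4 higher. Of all tested genes 1605, 1466 and 1375 were lower in these settings, and 1376, 1514 and 2517 higher. Pyhin1, an interferon-inducible HIN-domain gene, was at 96.2 ± 11.3 FPKM in naive, 34.5 ± 2.03 in the spleen-primed and 11.4 ± 1.10 in MLN-primed cells (means of 3 libraries ± SD, n = 3; -1.51 between the primed groups). Epsti1, induced by interferon in many cell types, was at 203.4 ± 22.8, 202.5 ± 20.9 and 88.4 ± 9.83 FPKM (-1.19), so naive and spleen-primed libraries overlapped and MLN-primed libraries lay below both. The nuclear body gene Sp100 was at 161.5 ± 16.2, 167.6 ± 16.2 and 88.3 ± 10.3 FPKM (-0.92).

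Ifitm1, which encodes a relative of Ifitm3, was nearly absent from naive cells. It reached 1 FPKM in primed libraries alone, so a rise from naive cells was a condition of its being tested. It was at 0.163 ± 0.0665 FPKM in naive, 49.6 ± 11.9 in the spleen-primed and 22.3 ± 4.63 in MLN-primed cells (means of 3 libraries ± SD, n = 3), and the primed groups differed by -1.11. The mitochondrial protein gene Ifi27 was at 71.2 ± 8.14, 48.5 ± 3.81 and 23.4 ± 1.01 FPKM (-1.02). Against naive cells 16 of the 56 were higher and 25 lower in the spleen-primed cells, and 11 higher and 36 lower in MLN-primed cells. Of all tested genes 43.1% were higher and 32.7% lower in the spleen-primed cells, and 45.5% and 33.2% in MLN-primed cells. Genes that reached 1 FPKM in naive or in primed libraries alone were not taken out of these counts. The core of the response element was found in 24 of 53 promoter windows of this list (45.3%).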
